A study of Homo sapiens with 6 samples.

Results

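The heat shock proteins and their cochaperones were examined in a human prostate epithelial line and in its arsenite-transformed descendant. Members were the genes whose only annotated symbol was an HSPA, HSPB, HSPD1, HSPE1, HSPH1, HSP90, DNAJA, DNAJB, DNAJC or BAG name, without HSPA5 and DNAJB9. The rule found 70 of the 18417 genes with a single symbol, in 9 families: 11 HSPA, 6 HSPB, the pair HSPD1 and HSPE1, HSPH1 alone, 3 HSP90, 4 DNAJA, 12 DNAJB, 25 DNAJC and 6 BAG. Each gene was represented by its brightest array feature. RWPE-1 is a non-tumorigenic line of normal adult prostate epithelium immortalised with human papillomavirus 18, and it was measured untreated at passages 18, 38 and 42. CAsE-PE is its malignant derivative, grown in 5 µM sodium arsenite and measured after 30, 33.5 and 35 weeks. Both groups thus carry the viral immortalisation, and each is a single line. No label states the passage of the exposed cells or names an untreated culture of the same age, so arsenite, transformation and time in culture cannot be told apart. The labels do not say that the 3 arrays of a group are separate cultures. The p-values describe only their spread, which includes differences of passage or weeks and may in part be technical.

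Heat shock proteins are molecular chaperones that hold, fold and refold other proteins. HSP70 proteins (HSPA) bind unfolded stretches in an ATP cycle that J-domain proteins (DNAJ) start and that HSPH1 and BAG proteins drive on by nucleotide exchange. HSP90 matures kinases and receptors, HSPD1 and HSPE1 form the mitochondrial folding chamber, and small heat shock proteins (HSPB) hold aggregating proteins without ATP. The factor HSF1 induces part of these genes when unfolded protein accumulates, and acute arsenite is a classical inducer.

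Array medians lay between 91.7 and 97.2 intensity units, and every level below is log2(intensity + 1). The 7 measured of 8 epithelial markers lay between 8.72 and 12.10. Among them KRT14, a basal keratin, was lower in CAsE-PE (−1.599, adjusted p = 0.00748, limma) and CDH1, E-cadherin, higher (0.39, adjusted p = 0.0186). Dim genes are the 6139 of lowest mean level. They held the 3 measured of 6 luminal prostate markers (KLK2, KLK3 and ACP3), the 5 measured of 6 leukocyte markers, all 4 endothelial markers and 5 of 6 fibroblast markers. The log2 of the summed signal was lower in CAsE-PE without overlap for 3 lists: epithelial (13.90 to 13.97 in RWPE-1, 13.67 to 13.86 in CAsE-PE), luminal prostate (7.39 to 7.49, then 7.23 to 7.26) and leukocyte (7.70 to 7.77, then 7.39 to 7.58). It overlapped for the endothelial (7.62 to 7.81, then 7.49 to 7.64) and fibroblast lists (8.76 to 8.86, then 8.77 to 8.85). Of the dim markers CD14, a monocyte gene, was called lower (−0.43, adjusted p = 0.0262). All measured luminal prostate and leukocyte markers were dim. Among all dim genes 75.5% had negative differences, CAsE-PE minus RWPE-1, with a median of −0.12. The part of the markers above in the results below was not tested. No detection call came with the values, so the 14 dim members cannot be told from background. Members such as HSPA6, DNAJC27 and DNAJA4 lay not far above the dim genes, at level percentiles 34.5, 37.7 and 40.8. In bulk RNA, fewer cells of a type and less RNA per cell cannot be told apart.

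Of the 70 members, 7 were higher and 6 lower in CAsE-PE, and 57 did not pass the threshold (limma, Benjamini-Hochberg adjusted p under 0.05 over all genes). That is 18.6% of members, beside 17.7% of all genes tested. Of the 56 members that were not dim 17.9% were called, beside 22.0% of all such genes. Of the 14 dim members 21.4% were called, beside 9.27% of all dim genes. Among all genes 9.04% were higher and 8.71% lower, so neither direction stood far from the background. The median difference, CAsE-PE minus RWPE-1, was −0.012 over the members (−0.060 to 0.052 with 1 array left out) and −0.062 over all genes. BAG2 alone differed by 1 log2 unit or more, 1.43% of members beside 3.71% of genes. The groups did not overlap for 35 members, beside 38.9% of all genes. The counts moved with single arrays. Without the passage 38 array 3 members were higher and 1 lower, beside 949 and 939 of all genes. Without the 35-week array the members were 2 and 3, beside 1035 and 1059 of all genes. Without the passage 18 array they were 7 and 2, beside 1195 and 1165. Without the 33.5-week array they were 7 and 3, beside 1415 and 1255. With all 6 arrays 1665 genes were higher and 1604 lower, so the counts over all genes fell too.

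**Figure D1:**
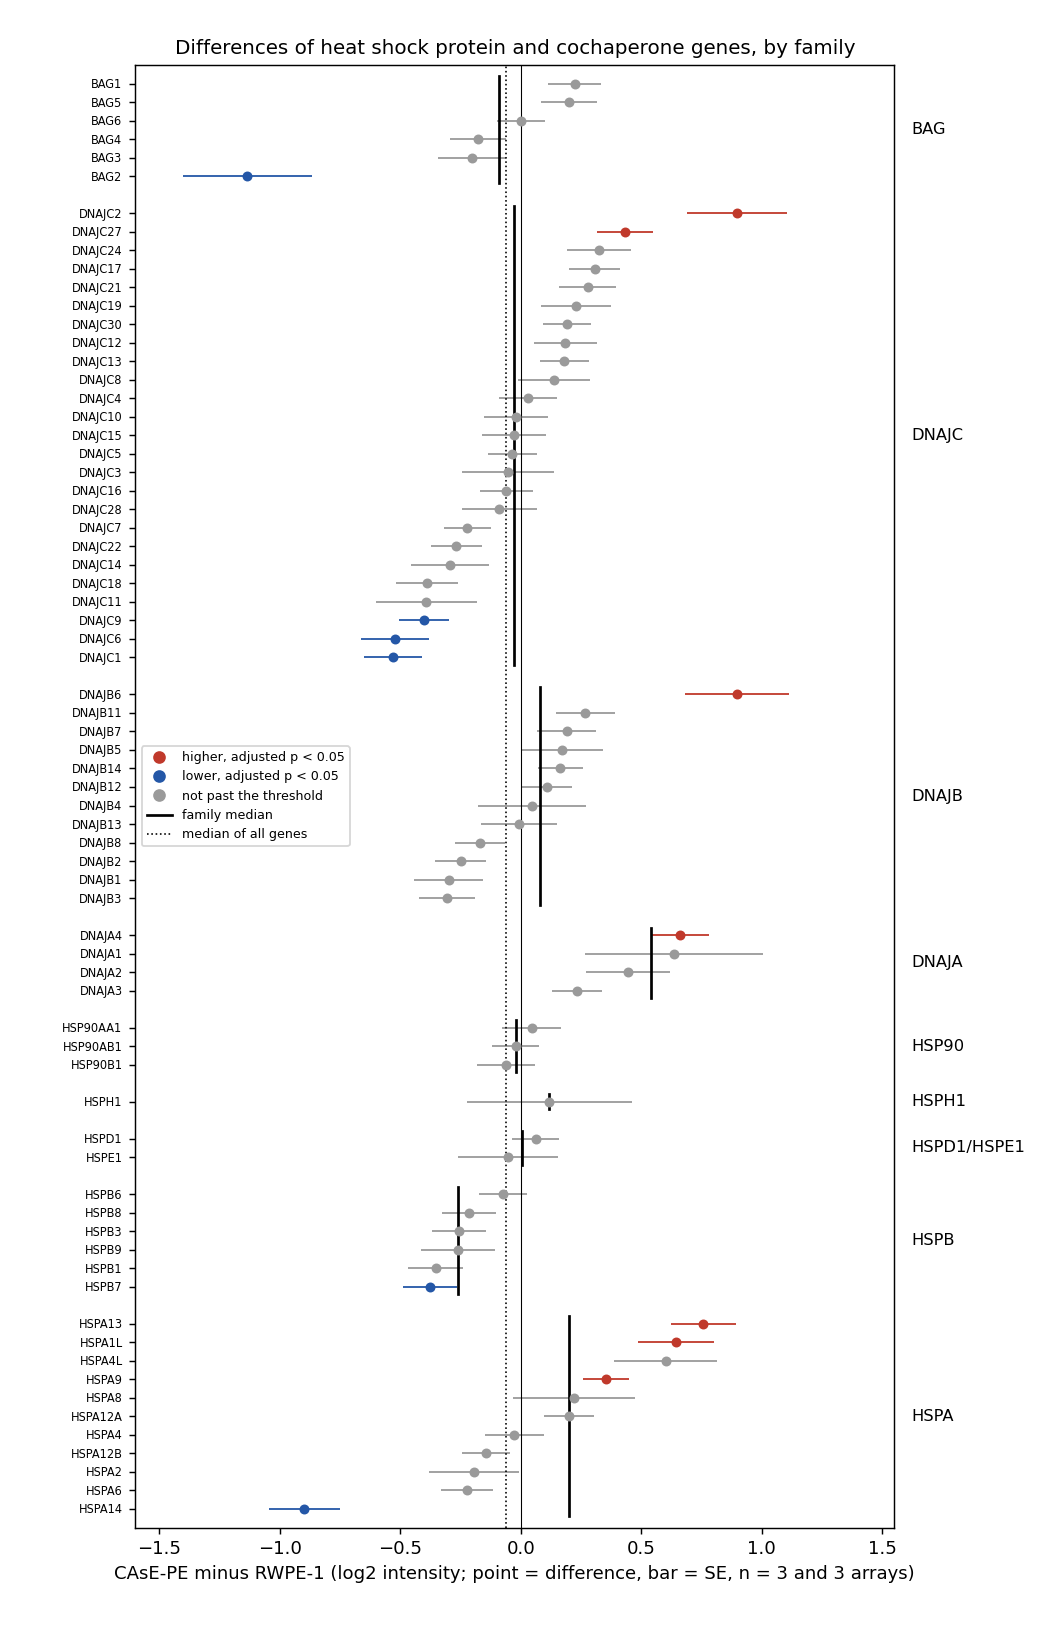
CAsE-PE minus RWPE-1 differences of all 70 members (x axis, log2 intensity; points are differences, bars the SE of the fit, n = 3 arrays per group), arranged by family, with the family median as a black line and the median of all genes (−0.062) dotted. Red members were higher and blue members lower; all 6 HSPB genes sit below 0 and all 4 DNAJA genes above it, while HSPA, DNAJB, DNAJC and BAG genes lie on both sides.

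The families lay at different places. All 6 small heat shock protein genes had negative differences (median −0.26, range −0.38 to −0.073), and 1 was called lower. All 4 DNAJA genes, J-proteins built like bacterial DnaJ, had positive differences (median 0.54, range 0.23 to 0.66), and 1 was called higher. Without the passage 42 array the DNAJA median was 0.21, with all 4 still positive. The 11 HSPA genes had a median of 0.20, with 3 called higher and 1 lower, but without passage 42 that median was −0.11 and 5 of the 11 differences were positive. The 3 HSP90 genes lay between −0.061 and 0.045 with no call. The 12 DNAJB genes had a median of 0.078 with 1 called higher, the 25 DNAJC genes a median of −0.028 with 2 higher and 3 lower, and the 6 BAG genes a median of −0.089 with 1 lower. The DNAJB median was −0.079 without the 30-week array, and the DNAJC median lay between −0.078 and 0.065 with 1 array left out, so neither has a settled sign. The HSPB median stayed between −0.31 and −0.21, with all 6 genes negative each time. Brightness differed between the families too: 4 of 6 HSPB genes were dim, and no DNAJA gene was. Among all dim genes 75.5% had negative differences, with a median of −0.12. The part of brightness in the family medians was not tested, and no family was tested against another.

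Among the HSP70 genes, HSPA13, a microsomal member that lacks the peptide-binding domain, rose. Its levels were 7.82, 7.86 and 8.06 at passages 18, 38 and 42, and 8.91, 8.45 and 8.66 at 30, 33.5 and 35 weeks. Every CAsE-PE array lay above every RWPE-1 array, a difference of 0.76 (SE 0.13, adjusted p = 0.00497, limma), and the call held under all 15 alternatives. HSPA9, mortalin, is the HSP70 of the mitochondrial matrix and acts in protein import. It measured 11.65, 11.56 and 11.48 in RWPE-1 and 11.89, 11.95 and 11.92 in CAsE-PE. The groups did not overlap and both were narrow (0.35, SE 0.10, adjusted p = 0.0341), but leaving out any array except that of 30 weeks ended the call (highest adjusted p = 0.114, without passage 38).

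HSPA1L, an HSP70 gene best known from testis, was higher in CAsE-PE. It measured 6.02, 5.43 and 5.53 in RWPE-1 and 6.24, 6.21 and 6.45 in CAsE-PE. The groups did not overlap (0.64, SE 0.16, adjusted p = 0.0222), and the call ended without the passage 38, passage 42 or 35-week array (highest adjusted p = 0.0926). HSPA1L is a dim gene, and its 3 features carried identical values and are 1 measurement. It resembles its neighbours HSPA1A and HSPA1B in sequence, so its signal is uncertain.

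HSPA14, the HSP70 that works at the ribosome with the J-protein DNAJC2, fell. The RWPE-1 arrays read 8.08, 8.06 and 7.63 and the CAsE-PE arrays 6.84, 7.17 and 7.07. The groups did not overlap (−0.90, SE 0.15, adjusted p = 0.00334), and the call held under all 15 alternatives. Its partner DNAJC2 was higher instead. DNAJC2 measured 7.79, 7.59 and 6.87 in RWPE-1 and 8.34, 8.25 and 8.34 in CAsE-PE (0.90, SE 0.21, adjusted p = 0.0171). Its call ended without the 35-week array (adjusted p = 0.0585).

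**Figure D2:**
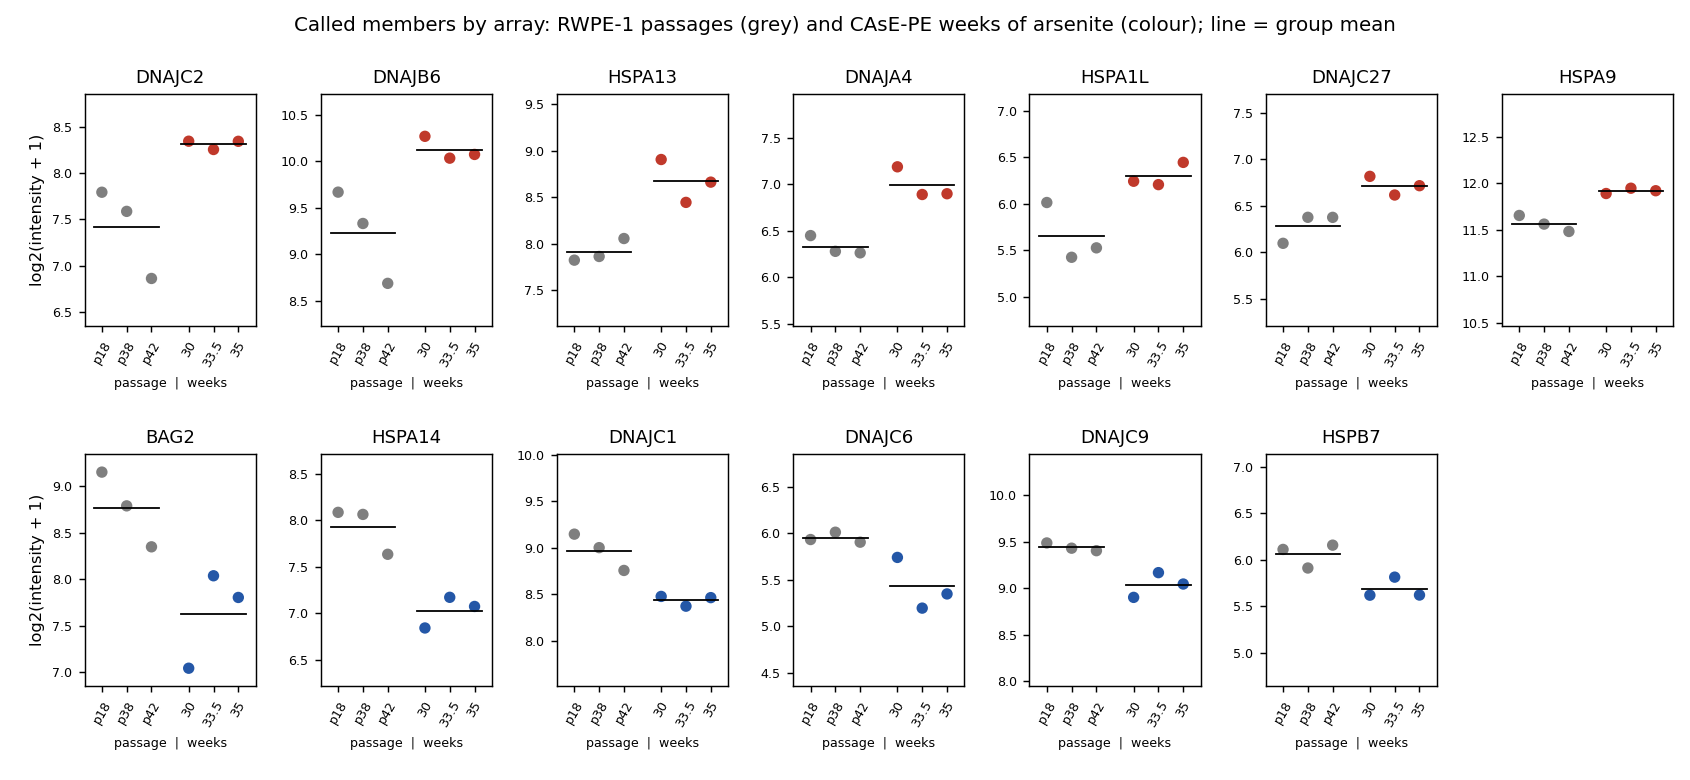
Levels of the 13 called members on each array (y axis, log2(intensity + 1), with the same span in every panel; x axis, passage or weeks), RWPE-1 in grey and CAsE-PE in colour; black lines are group means. The upper row holds the 7 higher and the lower row the 6 lower members; the groups overlap in no panel, and BAG2 has the widest range within CAsE-PE, from 7.04 to 8.04.

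Among the other J-protein genes, DNAJA4 and DNAJB6 rose. DNAJA4, a heat-inducible DNAJA gene, measured 6.45, 6.28 and 6.26 in RWPE-1 and 7.19, 6.89 and 6.90 in CAsE-PE. All CAsE-PE arrays were higher (0.66, SE 0.12, adjusted p = 0.00495), under all 15 alternatives. DNAJB6, which keeps polyglutamine and other amyloid-forming proteins in solution, read 9.67, 9.33 and 8.69 in RWPE-1 and 10.27, 10.03 and 10.07 in CAsE-PE. All CAsE-PE arrays again lay above RWPE-1 (0.90, SE 0.22, adjusted p = 0.0203), and the call ended without passage 38 (adjusted p = 0.0539) or 35 weeks (0.0569). Its dimmer feature differed by 0.62. DNAJC27, a Rab-like GTPase with a J domain, read 6.09, 6.37 and 6.37 in RWPE-1 and 6.81, 6.61 and 6.71 in CAsE-PE. It was higher on all CAsE-PE arrays (0.43, SE 0.12, adjusted p = 0.0310), and 4 of the 6 arrays each ended the call when left out (highest adjusted p = 0.106, without passage 18). DNAJA3, the brightest DNAJA gene, differed by 0.23 (SE 0.10, adjusted p = 0.159, limma). DNAJC7, the brightest DNAJC gene, differed by −0.22 (SE 0.099, adjusted p = 0.157). The groups of these genes did not overlap, and neither gene was called. With array weights DNAJC7 was called lower (−0.28, adjusted p = 0.0328).

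The 3 DNAJ genes that fell have separate tasks. DNAJC1, a J-protein of the endoplasmic reticulum membrane, read 9.15, 9.002 and 8.76 in RWPE-1 and 8.48, 8.37 and 8.46 in CAsE-PE (−0.53, SE 0.12, adjusted p = 0.0150). DNAJC6, auxilin, which recruits HSP70 to strip clathrin from vesicles, read 5.93, 6.01 and 5.91 in RWPE-1, and 5.74, 5.20 and 5.35 in CAsE-PE (−0.52, SE 0.14, adjusted p = 0.0335). It is a dim gene, and its call ended after quantile normalisation (adjusted p = 0.0516). DNAJC9, a chaperone of histones H3 and H4, read 9.48, 9.43 and 9.40 in RWPE-1, and 8.90, 9.17 and 9.04 in CAsE-PE (−0.40, SE 0.10, adjusted p = 0.0283). None of these 3 genes had overlapping groups. Each call ended with several single arrays left out, at most at an adjusted p of 0.0654 for DNAJC1, 0.117 for DNAJC6 and 0.0928 for DNAJC9, each without passage 38.

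No small heat shock protein gene was called higher in CAsE-PE. HSPB1, HSP27, the best known of them in epithelia, read 12.71, 12.60 and 12.69 in RWPE-1 and 12.15, 12.30 and 12.49 in CAsE-PE. The groups did not overlap, yet the difference of −0.35 (95% interval −0.61 to −0.10) missed the threshold (adjusted p = 0.0619). It passed with a pseudocount of 16 (adjusted p = 0.0472) and with a mean-variance trend (0.0236). HSPB7, a small heat shock protein of heart and muscle, read 6.11, 5.91 and 6.16 in RWPE-1 and 5.62, 5.81 and 5.62 in CAsE-PE. It was called lower (−0.38, SE 0.11, adjusted p = 0.0469), but it is a dim gene and the call ended under 11 of 14 alternatives, with each single array left out among them (highest adjusted p = 0.160, with the neighbours' shift removed). The remaining HSPB3, HSPB6, HSPB8 and HSPB9 differed by −0.26, −0.073, −0.22 and −0.26 with no call.

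BAG proteins help HSP70 release its substrates. BAG2, which also inhibits the ubiquitin ligase CHIP, had the largest difference of any member. It read 9.15, 8.79 and 8.35 at passages 18, 38 and 42, and 7.04, 8.04 and 7.80 at 30, 33.5 and 35 weeks. All CAsE-PE arrays lay below all RWPE-1 arrays (−1.14, SE 0.27, adjusted p = 0.0182). The call ended without passage 18 (adjusted p = 0.0585) or passage 38 (0.0638). BAG3, the stress-inducible member that works with HSPB8 in selective autophagy, read 10.16, 9.86 and 9.66 in RWPE-1 and 9.83, 9.59 and 9.66 in CAsE-PE. Its groups overlapped (−0.20, SE 0.14, adjusted p = 0.346). BAG1, BAG4, BAG5 and BAG6 lay between −0.18 and 0.22 with no call.

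The HSP90 genes and the mitochondrial pair did not pass. HSP90AA1, the stress-inducible cytosolic HSP90, read 11.38, 11.31 and 11.002 in RWPE-1 and 11.25, 11.22 and 11.37 in CAsE-PE (0.045, 95% interval −0.23 to 0.32). HSP90AB1, the constitutive form, read 12.14, 12.05 and 11.96 in RWPE-1, and 11.97, 12.04 and 12.07 in CAsE-PE (−0.021, interval −0.24 to 0.20). HSP90B1 of the endoplasmic reticulum differed by −0.061 (interval −0.33 to 0.21). HSPD1 differed by 0.061 (−0.16 to 0.28) and HSPE1 by −0.054 (−0.52 to 0.42). The groups of these 5 genes overlapped, and the lowest adjusted p was 0.690. Several have processed pseudogenes of similar sequence, so their features may collect other signal.

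Some members listed as heat-inducible spread widely within untreated RWPE-1 and little within CAsE-PE. HSPA8, the constitutive cytosolic HSP70, read 13.13, 12.79 and 11.94 at passages 18, 38 and 42, and 12.77, 12.80 and 12.95 at 30, 33.5 and 35 weeks. DNAJA1, its DnaJ-type partner, read 8.96, 8.26 and 7.12, and then 8.81, 8.65 and 8.79. HSPH1, the HSP110 exchange factor, read 9.51, 8.98 and 7.83, and then 8.96, 8.79 and 8.92. For all 3 genes passage 18 was the highest and passage 42 the lowest of the 6 arrays, and CAsE-PE lay between them. The range within RWPE-1 was 1.19 for HSPA8, 1.84 for DNAJA1 and 1.68 for HSPH1, and within CAsE-PE 0.18, 0.16 and 0.17. No other member had a range above 1 in RWPE-1 (4.29% of members, 1.249% of all genes). Between the groups HSPA8 differed by 0.22 (SE 0.25), DNAJA1 by 0.63 (SE 0.37) and HSPH1 by 0.12 (SE 0.34), with adjusted p-values of 0.571, 0.265 and 0.836. Without passage 42 these differences were −0.12, 0.14 and −0.35. Without passage 18 they were 0.48, 1.06 and 0.49, and DNAJA1 (adjusted p = 0.0426) and DNAJA2 (0.61, adjusted p = 0.0459) were then called higher.

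DNAJB1, a heat-inducible J-protein partner of HSP70, read 10.42, 9.99 and 9.87 in RWPE-1, in the same order of passages. Its CAsE-PE arrays read 9.76, 9.81 and 9.82, all below RWPE-1, and the difference of −0.30 (SE 0.14) did not pass (adjusted p = 0.185). HSPA6, an HSP70 that is nearly silent without stress, read 6.60, 6.34 and 6.33 in RWPE-1, and 6.23, 6.21 and 6.17 in CAsE-PE (−0.22, SE 0.11, adjusted p = 0.189). HSPA4L, an HSP110 relative, read 9.52, 9.23 and 9.60 in RWPE-1, and 10.49, 9.56 and 10.11 in CAsE-PE (0.60, SE 0.21, adjusted p = 0.0867), and was called higher without the 33.5-week array (adjusted p = 0.0120). The list of 17 heat-inducible genes includes HSPA8 and HSP90AB1, named above as constitutive. Of the 17 genes, 15 had a feature of their own. DNAJA4 rose and the other 14 did not pass, 6.67% called beside 17.7% of all genes. None of the 15 was dim, though HSPA6 lay just above the cut, and 22.0% of genes that were not dim were called. The median standard deviation within RWPE-1 was 0.20 over the 15 and 0.13 over all genes. Within CAsE-PE it was 0.099 over the 15 and 0.13 over all genes. The part of spread in the share of calls was not tested. The median difference of the 15 was 0.045, and −0.12 without passage 42. HSF1, the regulator of the response, read 9.24, 9.14 and 9.12 in RWPE-1 and 9.24, 9.07 and 9.04 in CAsE-PE (−0.046, SE 0.10, adjusted p = 0.781).

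**Figure D3:**
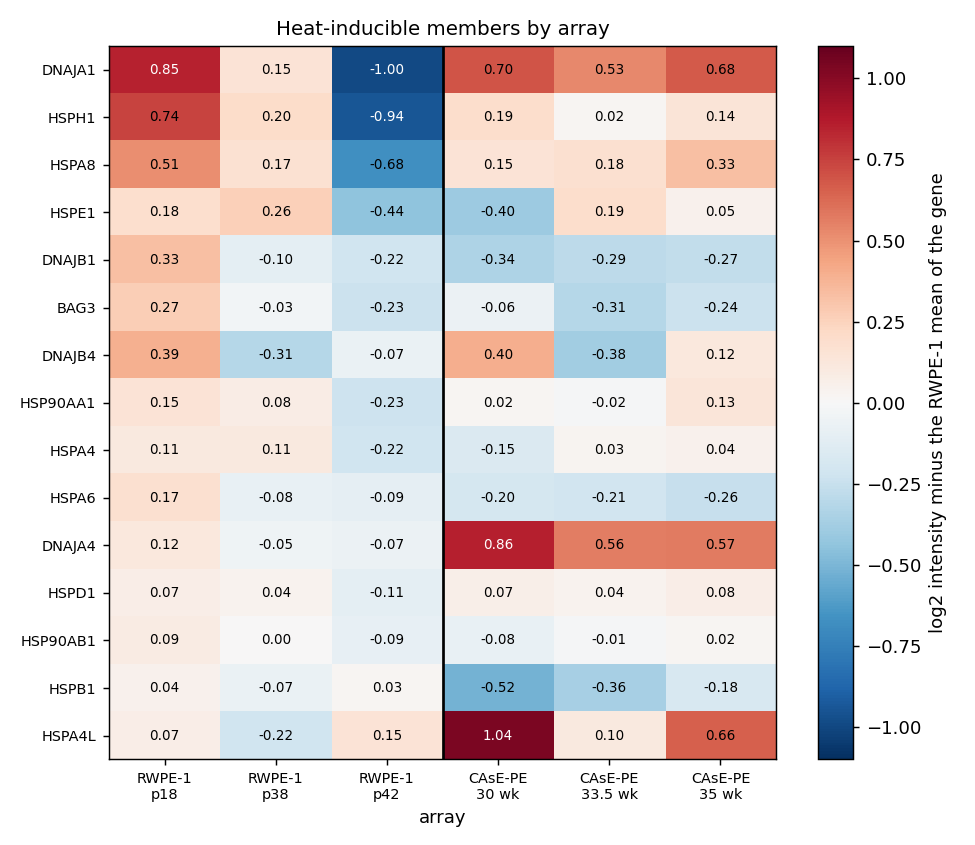
Heat map of the 15 heat-inducible members (rows, ordered by passage 18 minus passage 42) on the 6 arrays (columns); each cell is the log2 intensity minus the gene's own mean over the 3 RWPE-1 arrays. DNAJA1, HSPH1 and HSPA8 run from high at passage 18 to low at passage 42 with CAsE-PE columns that are alike, and DNAJA4 is raised in all 3 CAsE-PE columns.

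The order passage 18, passage 38, passage 42 from high to low occurred in 11 of the 15 heat-inducible members and in 29 of all 70 members (41.4%), beside 19.5% of all genes and 25.4% of genes that were not dim. Passage 42 was the lowest of the 6 arrays for 9 of the 15 and for 26 of all members (37.1%), beside 17.2% of all genes and 23.3% of those not dim. Among 49 measured chaperone system genes outside the rule, passage 42 was the lowest array for 31 (63.3%). These included 7 of 8 genes of the cytosolic chaperonin ring (TCP1 and the CCT genes) and all 6 prefoldin genes. The member families differed: passage 42 was the lowest array for all 4 DNAJA genes, 7 of 25 DNAJC genes and 0 of 6 HSPB genes. The median deviation of passage 42 from the RWPE-1 mean was 0.027 over all genes, −0.085 over the members and −0.22 over the heat-inducible members. In a limma model with slopes for passage and for weeks, 0 members passed for passage (smallest adjusted p = 0.408) and 0 for weeks (0.226), where 4 and 46 of all genes passed (0.0217% and 0.25%). At an unadjusted p under 0.05, 12 members (17.1%) had a passage slope, beside 5.82% of all genes. It was downward for 11 of these members and for 628 of the 18417 genes. Each passage is 1 array, so passage cannot be told apart from a trait of a single array. Members that move together on 1 array are not separate evidence of a trend. The slope was −0.63 per 10 passages (SE 0.14) for DNAJA1, −0.56 (SE 0.14) for HSPH1 and −0.39 (SE 0.11) for HSPA8. These slopes assume an even fall, but the larger part of it lay between passages 38 and 42. There DNAJA1 went from 8.26 to 7.12, HSPH1 from 8.98 to 7.83 and HSPA8 from 12.79 to 11.94. At the same level 6 members (8.57%) had a slope with weeks, beside 11.3% of all genes.

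Heat shock factors bind inverted repeats of GAA. Promoters were searched for GAA, TTC and GAA in a row, each 2 bases from the next, and for the reverse complement. Windows of 250 bases before to 50 after the start came from RefSeq (GRCh38.p14), where 63 of the 70 members had at least 1. The letters occurred in 7 of the members' 84 windows (8.33%) and in 172 of all 35116 windows (0.49%). The 7 genes were HSPA6, HSPA8, HSPD1, HSP90AA1, HSP90AB1, DNAJA1 and DNAJB6, and in DNAJA1 the match began after the start. All matches that lie before a start are shown, so that HSPA8, which spread widely over passages, can be read beside genes that spread less. They run 5′ to 3′ on the strand of the gene, with the repeats in capitals.
HSPA8, 55 bases before the start (chr11:123062167-123062203, minus strand): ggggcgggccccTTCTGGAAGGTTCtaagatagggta
HSPA8, 230 bases before the start (chr11:123062342-123062378, minus strand): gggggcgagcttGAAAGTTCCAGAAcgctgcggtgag
HSP90AA1, 88 bases before the start (chr14:102087108-102087144, minus strand): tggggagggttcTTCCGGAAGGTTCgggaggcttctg
HSP90AB1, 165 bases before the start (chr6:44247766-44247802, plus strand): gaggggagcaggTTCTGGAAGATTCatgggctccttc
HSP90AB1, 112 bases before the start (chr6:44247819-44247855, plus strand): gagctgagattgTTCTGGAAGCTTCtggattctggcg
HSPD1, overlapping matches 245 and 240 bases before the start (chr2:197500056-197500090, minus strand): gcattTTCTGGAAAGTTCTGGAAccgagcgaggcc
HSPA6, 74 bases before the start (chr1:161524454-161524490, plus strand): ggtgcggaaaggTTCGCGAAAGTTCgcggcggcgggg
DNAJB6, 131 bases before the start (chr7:157336861-157336897, plus strand): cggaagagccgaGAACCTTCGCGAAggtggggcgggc
The range within RWPE-1 was 1.19 for HSPA8, 0.38 for HSP90AA1, 0.18 for HSP90AB1 and 0.18 for HSPD1. It was 0.27 for HSPA6, 0.98 for DNAJB6 and 1.84 for DNAJA1. HSPH1, with a range of 1.68, had no match. Of the 15 heat-inducible members 6 had a match. DNAJB6 was the only called member among the 7. A match describes letters and does not show that a factor was bound in these cells.

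Several called members lay among neighbouring genes that differed in the same direction. The median difference of the 24 nearest measured genes was 0.59 around DNAJB6 and 0.58 around DNAJC2, both on chromosome 7. It was −0.66 around DNAJC1 and −0.42 around HSPA14, both on chromosome 10. With that shift removed, DNAJB6 differed by 0.31 (adjusted p = 0.342) and DNAJC2 by 0.32 (adjusted p = 0.293), and both calls ended. DNAJC1 turned to 0.13 (adjusted p = 0.531). DNAJC9, also on chromosome 10, had a neighbour median of −0.14 and was no longer called (−0.26, adjusted p = 0.108). HSPA14 stayed called at −0.47 (adjusted p = 0.0437). The neighbours of HSPA13, DNAJA4, HSPA1L, HSPA9, DNAJC27, DNAJC6 and BAG2 had medians between −0.13 and 0.14, and these 7 stayed called. With the shift removed, 7 of the 70 members were higher and 5 lower, beside 1342 higher and 1893 lower of 18365 genes. Of these 12 called members, 4 were new. They were HSPA12A (0.41, adjusted p = 0.0397), HSPA12B, which turned from −0.15 to 0.35 (adjusted p = 0.0435; neighbours −0.50), DNAJB3 (−0.45, adjusted p = 0.0245) and DNAJC18 (−0.40, adjusted p = 0.0471). Copy number was not analysed here.

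**Figure D4:**
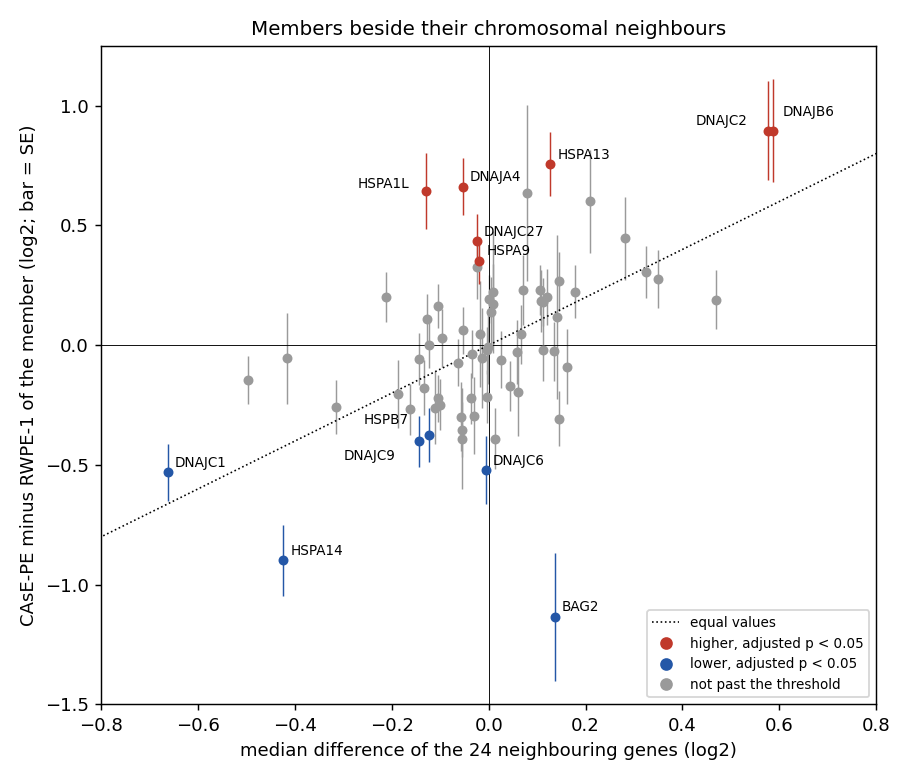
Difference of each member (y axis, log2, bars SE) against the median difference of its 24 chromosomal neighbours (x axis, log2); the dotted line marks equal values and the 13 called members are labelled. DNAJB6 and DNAJC2 stand at the right and DNAJC1 and HSPA14 at the left, with neighbours displaced the same way, while BAG2, HSPA13, DNAJA4 and HSPA1L stand far from the line.

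By compartment, the 10 measured members of the endoplasmic reticulum held HSPA13 as the single rise and DNAJC1 as the single fall, with a median of −0.037 (−0.059 to 0.071 with 1 array left out). The reticulum chaperone HSPA5, BiP, outside the rule, read 10.71, 10.98 and 10.55 in RWPE-1 and 11.52, 11.46 and 11.43 in CAsE-PE (0.72, SE 0.12, adjusted p = 0.00424). DNAJB9, a J-protein of the same compartment, read 5.7998, 5.67 and 5.34, and then 8.02, 6.67 and 7.26 (1.71, SE 0.29, adjusted p = 0.00385). Both were higher on every CAsE-PE array, and both calls ended with the neighbours' shift removed (adjusted p = 0.0639 for HSPA5 and 0.0508 for DNAJB9). The 9 mitochondrial members had HSPA9 as their single call and a median of 0.061. Among 49 measured of 57 other chaperone system genes, 5 rose and 44 did not pass (10.2%, beside 17.7% of all genes), with a median of 0.11. Besides HSPA5 and DNAJB9 these were FKBP4, HSCB and HYOU1. FKBP4, an HSP90-bound immunophilin, differed by 0.70 (SE 0.14, adjusted p = 0.00783). HSCB, the mitochondrial J-protein of iron-sulphur cluster assembly and a dim gene here, differed by 0.59 (SE 0.092, adjusted p = 0.00269). The calls of both ended with the neighbours' shift removed (adjusted p = 0.578 and 0.131). HYOU1, an exchange factor for BiP, differed by 0.47 (SE 0.14, adjusted p = 0.0448), and 5 of the 6 arrays each ended its call when left out (highest adjusted p = 0.115, without passage 42).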

How the data were processed

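The table that the authors deposited holds linear intensities (highest 16616.6) of 33252 features on 6 single-colour arrays. Per the labels' protocols, RNA was isolated with Trizol followed by a Qiagen miRNeasy kit, and target was made with an Ambion kit. How background, summarisation and normalisation were handled is not given in the sources used here. GEO's platform annotation named 19460 features with 1 symbol, 1754 with several and did not list 12038; features with several were left unnamed. RefSeq of GRCh38.p14 gave gene order, chromosomes and promoters.

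Values were log2(intensity + 1), which understates changes of dim genes. The brightest feature by mean log2 value stood for each of 18417 genes, and limma 3.58.1 in R 4.3.3 (lmFit, eBayes, two-sided) was fitted over all of them. Calls used a Benjamini-Hochberg adjusted p under 0.05, and a second limma model held passage and weeks. The 95% intervals use limma's moderated degrees of freedom (9.13). Tables and figures were made in Python 3.11.15. Arrays were grouped by the phenotype label; with 3 arrays per group, their number limits the precision. The steps were tested on simulated data. Members and lists were chosen with earlier results of these data known. Named genes were 5 markers, the classical HSP70, HSP90, HSPD1 and HSPE1 genes, the brightest gene of each family, called members and called genes of the chaperone list; others are examples chosen after their values were seen. Alternatives were quantile normalisation, median centring, a filter on dim genes, a pseudocount of 16, the mean of a gene's features, other variance models, array weights, the shift of 24 neighbouring genes taken off, and each array left out.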

Additional observations from a re-analysis of the deposited data

How the results depend on the processing

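The count of members higher in CAsE-PE was 7; it lay between 2 and 7 with 1 array left out and between 6 and 10 otherwise. The count lower was 6, with 1 to 4 when 1 array was left out and 4 to 8 otherwise. Over all genes 1665 were higher and 1604 lower, with 949 to 1665 and 939 to 1519 when 1 array was left out. Counts with passage and weeks were 0 under the 3 alternatives run for them. Of 192 recomputed values of the 13 called members, 147 kept direction and call, 44 lost the call, and 1 turned, DNAJC1 with the neighbours' shift removed (0.13). HSPA13, HSPA14 and DNAJA4 kept their call in each. The other turned values belong to genes without a call, and their cause was not tested. With 1 array left out, HSPA8 ranged from −0.12 to 0.48, HSPH1 from −0.35 to 0.49, HSP90AA1 from −0.070 to 0.12, HSP90AB1 from −0.067 to 0.023, HSP90B1 from −0.15 to 0.040 and HSPE1 from −0.27 to 0.12. With array weights HSP90AA1 was −0.015 and HSPH1 −0.13, with the neighbours' shift removed they were −0.021 and −0.025, and with median centring HSP90AB1 was 0.0025. Medians with each array left out were added after seeing the data. They ranged from −0.060 to 0.052 over all members, from −0.12 to 0.096 over the heat-inducible members, from −0.059 to 0.071 over those of the endoplasmic reticulum, from −0.11 to 0.24 for HSPA, from −0.079 to 0.13 for DNAJB and from −0.078 to 0.065 for DNAJC. The HSPB, DNAJA, BAG and mitochondrial medians kept their sign. No paired analysis was possible because the labels give the arrays no shared replicate number.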

Other observations

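HSPA1A and HSPA1B, the near-identical stress-inducible HSP70 genes, were found only on 5 features annotated with both symbols, which were left out of the comparison because the signal cannot be assigned to either gene. On the log2(intensity + 1) scale these features read from 10.91 to 11.31 at passage 18, from 9.51 to 10.02 at passage 38 and from 8.41 to 8.71 at passage 42. In CAsE-PE they read from 9.92 to 10.40 at 30 weeks, from 9.91 to 10.36 at 33.5 weeks and from 10.30 to 10.73 at 35 weeks. Passage 18 was the highest and passage 42 the lowest array for each of the 5, the order also seen in DNAJA1, HSPH1 and HSPA8. Of the 5, 2 carried identical values, so they are at most 4 measurements. A feature annotated with HSPA6 and HSPA7 read 8.08, 7.93 and 7.85 in RWPE-1 and 7.70, 7.60 and 7.41 in CAsE-PE, with no overlap between the groups.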
